A study of Arabidopsis thaliana with 12 samples.

Results

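Transcripts of 10 genes of leaf phloem and of the xylem wall, out of 28496 genes measured by mRNA sequencing of *Arabidopsis thaliana* leaves, were followed across 4 genotypes. The genes were taken by their AGI codes, a choice made with earlier results of these data known. The 5 phloem genes were *SEOR1* (AT3G01680), its neighbour *SEOa* (AT3G01670), *PP2-A1* (AT4G19840), *APL* (AT1G79430) and *SULTR2;1* (AT5G10180). The 5 xylem wall genes were *IRX1* (AT4G18780), *IRX3* (AT5G17420), *IRX5* (AT5G44030), *FLA11* (AT5G03170) and *FLA12* (AT5G60490).

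The study screened for genes that an active helper receptor needs to drive immunity, and found SADR1, a TIR domain receptor of the NLR family. *ADR1-L2 DV* plants lacked their own *ADR1-L2* (*adr1-l2-4*) and carried a transgene, under the *ADR1-L2* promoter, for the activation mimic ADR1-L2 D484V, a helper NLR with a changed residue that keeps it active. The suppressor lines, called *sadr1-26.6* and *sadr1-30.4* here, carried the same transgene and the same *adr1-l2-4* mutation, plus a mutation in *SADR1* found in a suppressor screen. Col-0, the wild type from which all of these lines derive, carried none of them. Each genotype had 3 leaf samples, each from at least 2 plants, taken in independent experiments under short days. The labels give neither a treatment nor an age.

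The deposited table held 1 whole-number value per gene and genotype, read here as a pooled read count, and whether the 3 samples were summed or averaged is not stated. Totals lay between 20013826 and 21277026 pooled counts per genotype. Counts were divided by a size factor per genotype to give scaled pooled counts, and a log2 ratio was taken after adding 1 to both. A gene was called higher or lower at a ratio of at least 1.5-fold if its scaled count averaged at least 50 over the 4 genotypes, which 15355 genes did. Since each genotype has 1 pooled value, no SD or test between genotypes was computed from the counts, and the comparisons that the authors deposited were not used, so no p-value is printed. Brackets give 95% intervals for counting error only, which leave out the spread between plants and experiments.

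Phloem carries sugars and other solutes out of the leaf through sieve elements, living cells without a nucleus that are served by companion cells. Xylem conducts water through dead cells whose secondary walls are built of cellulose, xylan and lignin. Both tissues run together in the leaf veins, so in whole leaves their transcripts are measured against a large excess of mesophyll RNA.

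*SEOR1* and *SEOa* encode the subunits of the P-protein filaments that fill sieve elements. The genes stood side by side on the plus strand of chromosome 3, *SEOa* at chr3:247192-250472 and *SEOR1* at chr3:251868-255513 (TAIR10.1), with 1395 bases and 0 annotated genes between them. Their coding sequences were 64.7% identical over the aligned bases. They shared 0 windows of 50 bases, so reads of that length could be told apart. *IRX1*, *IRX3* and *IRX5* encode the cellulose synthases CESA8, CESA7 and CESA4 of the secondary wall, which work in 1 complex. They lay apart, at chr4:10312624-10316886 on the minus strand, chr5:5736630-5741500 on the minus strand and chr5:17714390-17719723 on the plus strand. Their coding sequences were 71.1% to 71.4% identical in pairs. The 250 bases before the annotated start of these 5 genes are printed because each group of genes was low together in *ADR1-L2 DV*. The sequences are from the RefSeq genome TAIR10.1, 5′ to 3′ on the strand of the gene, and capitals mark a match to a 7-letter motif.
*SEOa*, chr3:246942-247191, plus strand: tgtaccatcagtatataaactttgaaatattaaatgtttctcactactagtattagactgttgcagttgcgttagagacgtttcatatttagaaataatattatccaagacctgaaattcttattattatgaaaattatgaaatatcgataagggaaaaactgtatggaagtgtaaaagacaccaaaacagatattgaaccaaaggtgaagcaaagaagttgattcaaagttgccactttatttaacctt
*SEOR1*, chr3:251618-251867, plus strand: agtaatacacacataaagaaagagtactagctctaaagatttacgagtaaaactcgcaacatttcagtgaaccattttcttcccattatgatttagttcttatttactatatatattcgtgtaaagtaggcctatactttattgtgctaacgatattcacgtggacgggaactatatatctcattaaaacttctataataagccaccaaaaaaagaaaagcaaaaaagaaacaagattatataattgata
*IRX5*, chr5:17714140-17714389, plus strand: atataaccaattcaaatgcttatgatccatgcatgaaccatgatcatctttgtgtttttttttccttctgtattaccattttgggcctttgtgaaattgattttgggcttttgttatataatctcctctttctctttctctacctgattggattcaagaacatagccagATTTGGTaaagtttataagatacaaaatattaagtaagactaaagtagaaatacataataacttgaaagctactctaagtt
*IRX1*, chr4:10316887-10317136, minus strand: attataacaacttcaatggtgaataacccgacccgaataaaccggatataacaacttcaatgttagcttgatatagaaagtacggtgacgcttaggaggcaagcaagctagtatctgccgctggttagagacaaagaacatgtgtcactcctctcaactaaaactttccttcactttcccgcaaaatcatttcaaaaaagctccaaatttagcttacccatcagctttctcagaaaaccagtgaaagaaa
*IRX3*, chr5:5741501-5741750, minus strand: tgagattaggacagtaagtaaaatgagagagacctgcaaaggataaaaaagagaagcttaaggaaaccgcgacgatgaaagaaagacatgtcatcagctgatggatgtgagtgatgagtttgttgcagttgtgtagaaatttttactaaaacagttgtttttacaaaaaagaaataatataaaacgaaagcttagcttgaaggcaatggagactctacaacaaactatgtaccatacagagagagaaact
The motif was the secondary wall MYB-responsive element bound by the regulators MYB46 and MYB83. It was searched on both strands as 8 strings that begin with ACC and go on with A or T, then A, then A or C, then C or T, and none of these strings is the reverse complement of another. Of the 10 genes, 3 held a match: *IRX5* with ATTTGGT, a match on the other strand, starting at -81, *FLA11* with ACCAAAC at -51 and *FLA12* with ACCAACT at -227. Over all 27443 protein-coding genes, 29.4% held a match in the same window, a share close to that of the 10 genes. The longest run of bases that the *SEOa* and *SEOR1* upstream regions had in common was 8, and for the 3 cellulose synthase genes taken in pairs it was 8 or 9.

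The remaining members lay at chr4:10773804-10775942 (*PP2-A1*, plus strand), chr1:29877228-29879279 (*APL*, minus), chr5:3193017-3197136 (*SULTR2;1*, plus), chr5:752750-753657 (*FLA11*, minus) and chr5:24325457-24326827 (*FLA12*, minus). Each of the 10 genes was found in the table. *FLA12* stayed below the minimum, with a mean scaled count of 37.7, so counts of called members are out of 9 and its values are given as a description.

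All 10 genes were lower in *ADR1-L2 DV* than in Col-0, and all 9 over the minimum passed 1.5-fold. Over all genes, 14.9% were lower and 12.2% higher by this measure. The genes and the threshold were chosen with earlier results of these data known, so this contrast is a description and not a test. The median log2 ratio of the 10 genes was -1.03, against 0.0059 over all genes. Summed over the phloem genes, the scaled count was 3050 in *ADR1-L2 DV*, 6005 in *sadr1-26.6*, 7264 in *sadr1-30.4* and 8430 in Col-0. Summed over the xylem wall genes, it was 320, 438, 475 and 624 in the same order of genotypes. The log2 ratio of *ADR1-L2 DV* to Col-0 was -1.47 for the phloem sum [-1.52, -1.41] and -0.96 for the xylem wall sum [-1.15, -0.77]. *SULTR2;1*, at 611 scaled counts in *ADR1-L2 DV* and 3185 in Col-0, weighs heavily in the phloem sum. These sums therefore do not rank the tissues. In whole leaves, fewer phloem or xylem cells and less RNA of these genes per cell cannot be told apart.

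**Figure D1:**
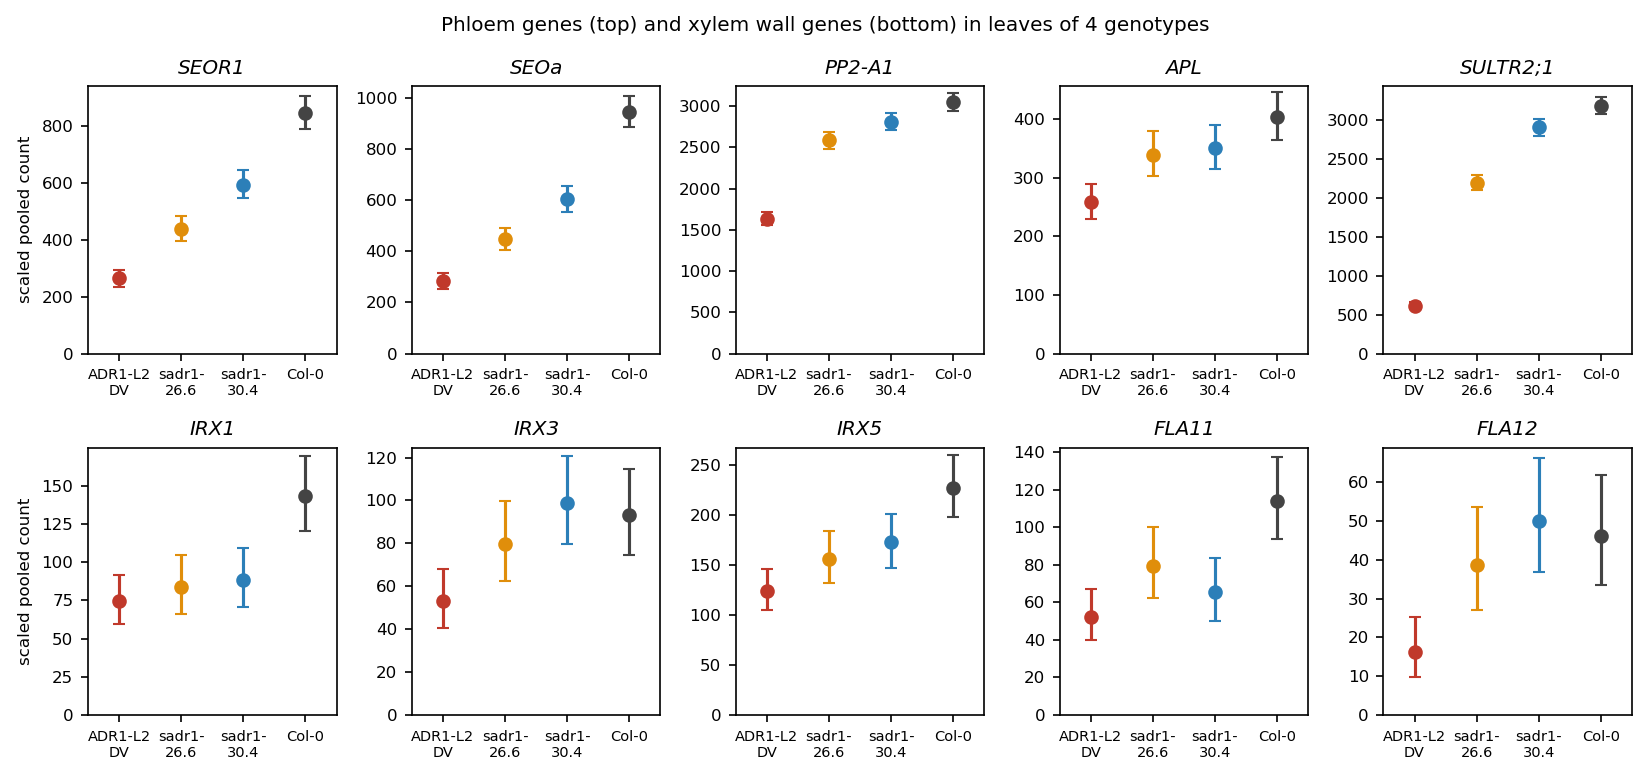
Scaled pooled count (vertical axis, from 0) of each phloem gene (top) and xylem wall gene (bottom) in 4 genotypes; points are the 1 value per genotype and bars are 95% Poisson intervals of the count. *SULTR2;1* was at 611 in *ADR1-L2 DV*, 2196 in *sadr1-26.6*, 2907 in *sadr1-30.4* and 3185 in Col-0, while *IRX1* was between 74.4 and 88.3 in the 3 lines with the transgene and 143 in Col-0.

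Both P-protein genes were low in *ADR1-L2 DV* and intermediate in the suppressors. *SEOR1* had 308 pooled counts in *ADR1-L2 DV*, 406 in *sadr1-26.6*, 570 in *sadr1-30.4* and 808 in Col-0. *SEOa* had 330, 415, 580 and 902 pooled counts in that order. After scaling, *SEOR1* stood at 31.2%, 51.6% and 70.0% of its Col-0 level in *ADR1-L2 DV*, *sadr1-26.6* and *sadr1-30.4*, and *SEOa* at 29.9%, 47.3% and 63.8%. The intervals of the 4 genotypes did not overlap for either gene. The log2 ratio of *ADR1-L2 DV* to Col-0 was -1.68 for *SEOR1* [-1.88, -1.49] and -1.74 for *SEOa* [-1.93, -1.56]. Only 1.84% and 1.65% of the 15355 genes had lower ratios than these genes.

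The pair kept nearly the same proportion to each other. There were 0.933 *SEOR1* counts per *SEOa* count in *ADR1-L2 DV* [0.796, 1.09], 0.978 in *sadr1-26.6* [0.851, 1.12], 0.983 in *sadr1-30.4* [0.874, 1.11] and 0.896 in Col-0 [0.814, 0.986]. These ratios within a genotype do not depend on the scaling, and all 4 intervals overlapped. A further *SEO* gene, AT1G67790, had 127, 93, 104 and 113 pooled counts in *ADR1-L2 DV*, *sadr1-26.6*, *sadr1-30.4* and Col-0. Its log2 ratios to Col-0 were -0.12, -0.24 and -0.13.

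*SULTR2;1*, a low-affinity sulfate transporter of vascular parenchyma, had the lowest ratio of the 10 genes in *ADR1-L2 DV*. It had 714 pooled counts in *ADR1-L2 DV*, 2042 in *sadr1-26.6*, 2798 in *sadr1-30.4* and 3044 in Col-0. Its scaled level in *ADR1-L2 DV* was 19.2% of that in Col-0, a log2 ratio of -2.38 [-2.50, -2.26], and 0.658% of genes had a lower one. It was at 68.9% of the Col-0 level in *sadr1-26.6* and at 91.3% in *sadr1-30.4*, with log2 ratios of -0.54 [-0.62, -0.46] and -0.13 [-0.21, -0.06].

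*PP2-A1*, a lectin of the phloem sap made in companion cells, had the highest level per kilobase of exon of the 10 genes in each genotype. It had 1912 pooled counts in *ADR1-L2 DV*, 2405 in *sadr1-26.6*, 2705 in *sadr1-30.4* and 2916 in Col-0. It stood at 53.6% of the Col-0 level in *ADR1-L2 DV*, a log2 ratio of -0.90 [-0.98, -0.82], at 84.8% in *sadr1-26.6* and at 92.1% in *sadr1-30.4*. An opposite-strand gene, AT4G19830, covered 18.8% of its exon bases and had 224, 302, 326 and 358 pooled counts in *ADR1-L2 DV*, *sadr1-26.6*, *sadr1-30.4* and Col-0. The strand setting of the counting is not stated, so reads in the shared stretch cannot be assigned.

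*APL*, a MYB-type transcription factor required for phloem identity, had the ratio nearest to 0 of the phloem genes in *ADR1-L2 DV*, though not in the suppressors. It had 302 pooled counts in *ADR1-L2 DV*, 316 in *sadr1-26.6*, 338 in *sadr1-30.4* and 386 in Col-0. Its log2 ratio of *ADR1-L2 DV* to Col-0 was -0.64 [-0.87, -0.42], just past the 1.5-fold line, and scaling by total counts, at -0.43, ended this call. In *sadr1-26.6* it was -0.25 [-0.47, -0.03] and in *sadr1-30.4* -0.20 [-0.42, 0.01].

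Across genotypes, some other pairs of phloem genes differed in their proportions, but *PP2-A1* to *APL* had overlapping intervals in all genotypes. That ratio was 6.331 in *ADR1-L2 DV*, 7.611 in *sadr1-26.6*, 8.003 in *sadr1-30.4* and 7.554 in Col-0. Its interval reached up to 7.17 in *ADR1-L2 DV* and down to 7.14 in *sadr1-30.4*, a narrow overlap. There were 0.373 *SULTR2;1* counts per *PP2-A1* count in *ADR1-L2 DV* [0.342, 0.407], 0.849 in *sadr1-26.6* [0.800, 0.901], 1.03 in *sadr1-30.4* [0.981, 1.09] and 1.04 in Col-0 [0.992, 1.10]. The interval of *ADR1-L2 DV* lay below the others, and those of *sadr1-30.4* and Col-0 overlapped. *SEOR1* to *PP2-A1* was 0.161 in *ADR1-L2 DV* [0.142, 0.182], 0.169 in *sadr1-26.6* [0.152, 0.188], 0.211 in *sadr1-30.4* [0.192, 0.231] and 0.277 in Col-0 [0.256, 0.300]. By this ratio, *sadr1-26.6* was close to *ADR1-L2 DV*, whereas by *SULTR2;1* to *PP2-A1* it was closer to Col-0.

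**Figure D2:**
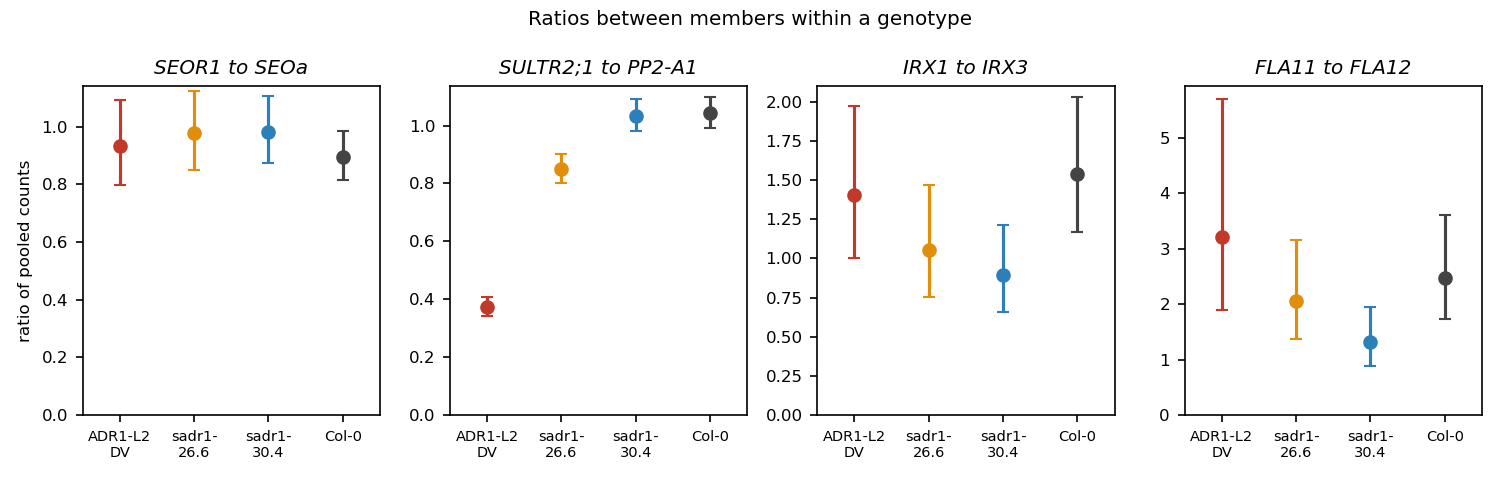
Ratio of the pooled counts of 2 genes (vertical axis, from 0) in each of 4 genotypes, with 95% exact binomial intervals. *SEOR1* to *SEOa* lay between 0.896 and 0.983, while *SULTR2;1* to *PP2-A1* was 0.373 in *ADR1-L2 DV* and 1.04 in Col-0; the xylem wall pairs had wider intervals.

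The 3 cellulose synthase genes were all called lower in *ADR1-L2 DV*. *IRX1* had 87 pooled counts in *ADR1-L2 DV*, 78 in *sadr1-26.6*, 85 in *sadr1-30.4* and 137 in Col-0. *IRX5* had 145, 145, 166 and 217 in that order, and *IRX3* had 62, 74, 95 and 89. The log2 ratio of *ADR1-L2 DV* to Col-0 was -0.94 for *IRX1* [-1.35, -0.55], -0.87 for *IRX5* [-1.19, -0.56] and -0.80 for *IRX3* [-1.30, -0.33].

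*IRX1* was also low in both suppressors, at a log2 ratio to Col-0 of -0.77 in *sadr1-26.6* [-1.19, -0.36] and -0.69 in *sadr1-30.4* [-1.11, -0.30]. *IRX5* lay at -0.54 [-0.86, -0.23] and -0.39 [-0.70, -0.10], within 1.5-fold in both. *IRX3* lay at -0.22 [-0.69, 0.23] and 0.08 [-0.35, 0.52], so its intervals held the Col-0 level. *IRX1* to *IRX3* was 1.40 in *ADR1-L2 DV* [1.00, 1.98], 1.05 in *sadr1-26.6* [0.757, 1.47], 0.895 in *sadr1-30.4* [0.660, 1.21] and 1.54 in Col-0 [1.17, 2.03]. Relative to Col-0, the log2 of *IRX1* to *IRX3* was -0.55 [-1.15, 0.05] in *sadr1-26.6* and -0.78 [-1.35, -0.21] in *sadr1-30.4*. For *IRX5* to *IRX3* it was -0.32 [-0.85, 0.22] and -0.48 [-0.99, 0.03], and for *IRX5* to *IRX1* 0.23 [-0.27, 0.73] and 0.30 [-0.19, 0.79]. Of these 6 intervals, that of *IRX1* to *IRX3* in *sadr1-30.4* was the only one without 0.

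Opposite-strand or neighbouring genes shared exon bases with all 3. AT4G18770 covered 14.4% of the exon bases of *IRX1* but had 0, 0, 2 and 0 pooled counts in *ADR1-L2 DV*, *sadr1-26.6*, *sadr1-30.4* and Col-0. The overlaps of *IRX3* and *IRX5* with annotated genes came to at most 1.94% of their exon bases. One of them, AT5G44020 on the same strand as *IRX5*, shared 17 bases with it and had 1814, 2482, 1877 and 1344 pooled counts.

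*FLA11* and *FLA12* encode fasciculin-like arabinogalactan proteins, cell surface glycoproteins of cells that form secondary walls in stems. *FLA11* had 61 pooled counts in *ADR1-L2 DV*, 74 in *sadr1-26.6*, 63 in *sadr1-30.4* and 109 in Col-0. Its log2 ratios to Col-0 were -1.11 [-1.60, -0.66], -0.51 [-0.97, -0.08] and -0.79 [-1.27, -0.34]. *FLA12* had 19, 36, 48 and 44 pooled counts, and log2 ratios of -1.45 [-2.36, -0.70], -0.24 [-0.93, 0.42] and 0.11 [-0.51, 0.74].

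The intervals of *FLA11* lay below the Col-0 level in all 3 lines with the transgene, and those of *FLA12* did so in *ADR1-L2 DV* but not in the suppressors. *FLA11* to *FLA12* was 3.21 in *ADR1-L2 DV* [1.89, 5.69], 2.06 in *sadr1-26.6* [1.36, 3.15], 1.31 in *sadr1-30.4* [0.887, 1.95] and 2.48 in Col-0 [1.73, 3.60]. Relative to Col-0, the log2 of this ratio was 0.37 [-0.52, 1.27] in *ADR1-L2 DV* and -0.27 [-1.03, 0.50] in *sadr1-26.6*. In *sadr1-30.4* it was -0.92 [-1.66, -0.18], an interval without 0. AT5G03160, on the opposite strand, covered 6.17% of the exon bases of *FLA11* and had 1384, 585, 559 and 1095 pooled counts in *ADR1-L2 DV*, *sadr1-26.6*, *sadr1-30.4* and Col-0. Reads of that gene in the shared 56 bases would be added to *FLA11* if strand was not used.

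**Figure D3:**
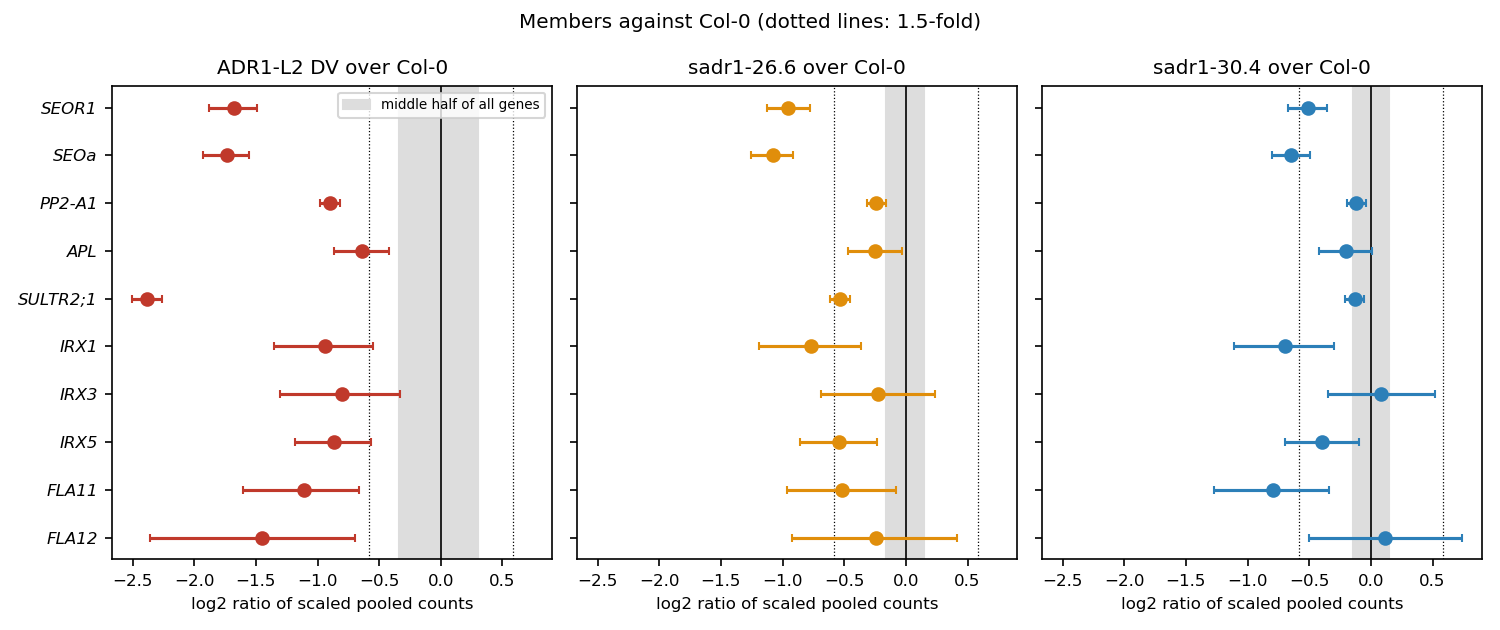
Log2 ratio to Col-0 (horizontal axis) of the 10 genes in *ADR1-L2 DV*, *sadr1-26.6* and *sadr1-30.4*, with 95% counting intervals; the grey band holds the central 50% of the 15355 genes and dotted lines mark 1.5-fold. All points lay left of 0 in *ADR1-L2 DV* and *sadr1-26.6*, and 8 of 10 did so in *sadr1-30.4*, where *IRX3* at 0.08 and *FLA12* at 0.11 were to the right.

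In *sadr1-26.6* against Col-0, 3 of 9 members were lower by at least 1.5-fold, *SEOR1*, *SEOa* and *IRX1*, and 0 were higher. Over all genes, 3.89% were lower and 3.26% higher. *SULTR2;1* and *IRX5*, both at -0.54, were just within the line. In *sadr1-30.4* against Col-0, 3 of 9 were lower, *SEOa* at -0.65, *IRX1* and *FLA11*, and 0 were higher, against 3.7% lower and 1.62% higher over all genes. *SEOR1*, at -0.51 [-0.67, -0.36], was within the line. The median of the 10 genes was -0.53 in *sadr1-26.6* and -0.30 in *sadr1-30.4*, against -0.0063 and 0.0056 over all genes. The phloem sums of the suppressors stood at log2 ratios of -0.49 [-0.54, -0.44] and -0.21 [-0.26, -0.17], and the xylem wall sums at -0.51 [-0.70, -0.33] and -0.39 [-0.57, -0.22]. All 3 comparisons use the same Col-0 values, so a high or low Col-0 count enters each of them.

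Against *ADR1-L2 DV*, 5 of 9 members were higher in *sadr1-26.6*, *SULTR2;1* by 3.59-fold, *SEOR1* by 1.65-fold, *PP2-A1* and *SEOa* by 1.58-fold and *FLA11* by 1.52-fold, and 0 were lower. Over all genes, 14.8% were higher and 13.3% lower. *IRX3*, at 1.49-fold, was just within the line. With scaling by total counts, 1 of the 5 was called, *SULTR2;1*. In *sadr1-30.4*, 5 of 9 were higher, *SULTR2;1* by 4.75-fold, *SEOR1* by 2.24-fold, *SEOa* by 2.13-fold, *IRX3* by 1.85-fold and *PP2-A1* by 1.72-fold, and 0 were lower, against 17.6% higher and 16.2% lower over all genes. The median log2 ratio of the 10 genes was 0.63 and 0.83, against -0.014 and -0.0025 over all genes.

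*IRX1* was nearly the same in each suppressor as in *ADR1-L2 DV*, with log2 ratios of 0.17 [-0.29, 0.63] and 0.24 [-0.20, 0.70]. *IRX5* had 0.33 [-0.01, 0.67] and 0.47 [0.15, 0.81]. The intervals of *IRX1* include both no difference and one of 1.5-fold, so these counts do not decide between them.

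The 2 suppressor lines were also set against each other, a comparison added after the values had been seen. Any other difference between these lines cannot be told apart from that of their *SADR1* mutations. *SEOR1*, *SEOa* and *SULTR2;1* were higher in *sadr1-30.4* than in *sadr1-26.6*, with log2 ratios of 0.44 [0.25, 0.63], 0.43 [0.25, 0.62] and 0.40 [0.32, 0.49], and *PP2-A1* had 0.12 [0.04, 0.20]. For *APL* and the 5 xylem wall genes, the intervals held 0.

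Levels were compared between genes per kilobase of exon. In Col-0 the order was *PP2-A1* at 2015 scaled counts per kilobase, *SULTR2;1* at 1244, *SEOa* at 340, *SEOR1* at 318, *APL* at 252, *FLA11* at 126, *IRX5* at 60.2, *IRX1* at 42.8, *FLA12* at 33.6 and *IRX3* at 27.4. Intervals overlapped between *SEOa* and *SEOR1*, between *IRX1* and *FLA12*, and between *FLA12* and *IRX3*. In *ADR1-L2 DV*, *APL* at 161 [143, 180] lay above *SEOa* at 102 [91.0, 113] and *SEOR1* at 99.2 [88.5, 111], the reverse of the Col-0 order. In *sadr1-26.6*, *APL* at 212 [189, 237] was also above *SEOR1* at 164 [149, 181] and *SEOa* at 161 [146, 177], and in *sadr1-30.4* all 3 lay between 217 and 223 with overlapping intervals. The xylem wall genes were low everywhere, at 126 or less per kilobase.

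Gene lists around the members were then examined for *ADR1-L2 DV* against Col-0, each described by its called genes and its median, with 14.9% of all genes lower and 12.2% higher. Of 25 other phloem genes, 15 were over the minimum, of which 10 were lower and 1 higher, with a median of -0.77. The largest differences were in *CLE44* (-2.03 [-2.80, -1.41]) and *CLE41* (-1.21 [-1.52, -0.91]), which encode the phloem-made peptide that acts on the vascular cambium, and in AT5G02460 (-1.39 [-2.07, -0.80]). The companion cell sucrose carrier *SUC2* lay at -0.68 [-0.74, -0.62] and *AHA3*, a proton pump of companion cells, at -0.34 [-0.40, -0.29]. The 1 higher gene was *SWEET12*, a sucrose exporter of phloem parenchyma, at 0.67 [0.47, 0.87].

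Fewer of these genes were called in the suppressors, where 2 of 15 were lower in *sadr1-26.6* and 1 in *sadr1-30.4*, with 0 higher in both. Over all genes, 3.89% were lower in *sadr1-26.6* and 3.7% in *sadr1-30.4*. The medians of the list were -0.19 and -0.06. *CALS7*, the callose synthase of sieve plates, was singled out after its values were seen, since it was lower in all 3 lines, with 59, 34, 63 and 104 pooled counts in *ADR1-L2 DV*, *sadr1-26.6*, *sadr1-30.4* and Col-0. Its log2 ratios were -1.09, -1.55 and -0.72. *SUC2* in the suppressors lay at 0.01 and -0.18.

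The relatives of *PP2-A1* had no common direction. Of the 14 other *PP2-A* genes, 5 were over the minimum, with *PP2-A10* lower (-0.90 [-1.47, -0.37]), as *PP2-A1* was, *PP2-A13* higher (0.90 [0.67, 1.13]) and a median of 0.39. *PP2-A2* had 3, 4, 4 and 10 pooled counts in *ADR1-L2 DV*, *sadr1-26.6*, *sadr1-30.4* and Col-0, too few for a ratio.

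Sulfate transporters other than *SULTR2;1* were mostly lower as well. Of 11, 6 were over the minimum and 4 of them were lower, *SULTR4;2* (-2.03 [-2.77, -1.44]), *SULTR3;4* (-1.76 [-2.38, -1.24]), *SULTR3;1* (-1.47 [-1.59, -1.36]) and *SULTR2;2* (-0.63 [-0.93, -0.34]), with 0 higher. *SULTR3;1* works at the chloroplast envelope and *SULTR4;2* at the vacuole. The root uptake transporter *SULTR1;2* was below the minimum and went the other way, with 124, 27, 24 and 20 pooled counts in *ADR1-L2 DV*, *sadr1-26.6*, *sadr1-30.4* and Col-0. *SULTR3;5*, also below the minimum, had 3, 12, 37 and 54 pooled counts in that order. In *sadr1-26.6* and *sadr1-30.4*, *SULTR3;1* was at 0.15 and 0.02 and *SULTR2;2* at -0.02 and -0.08. *SULTR4;2* was at -1.08 and 0.15, and *SULTR3;4* at -0.96 and -1.28.

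Among 10 genes of the response to low sulfur, 7 were over the minimum, of which 2 were higher and 0 lower. These were AT5G26220 (3.02 [2.31, 4.01]) and AT1G04770 (0.78 [0.57, 0.99]). The median of the list was 0.16. The other genes over the minimum were within 1.5-fold. *APR2* (-0.55), *APR1* (-0.37) and *SLIM1* (-0.23) lay below Col-0, and *LSU2* (0.28) and *APR3* (0.16) above it. The summed scaled count of the list stood at 79.4% of Col-0. *LSU1*, which rises at low sulfur supply, was below the minimum with 68, 5, 8 and 4 pooled counts in *ADR1-L2 DV*, *sadr1-26.6*, *sadr1-30.4* and Col-0.

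The cellulose synthases of the primary wall were lower in *ADR1-L2 DV* too, but not in the suppressors. Of 7, 5 were over the minimum and 4 were lower, with log2 ratios of -0.69 for *CESA1*, -0.79 for *CESA2*, -0.83 for *CESA5* and -0.63 for *CESA6*, and *CESA3* at -0.53 was within 1.5-fold. In *sadr1-26.6* all 5 were above Col-0, between 0.15 and 0.36, and in *sadr1-30.4* between 0.19 and 0.28. In these lines *IRX1* and *IRX5* lay between -0.77 and -0.39, while *IRX3* lay at -0.22 [-0.69, 0.23] and 0.08 [-0.35, 0.52].

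**Figure D4:**
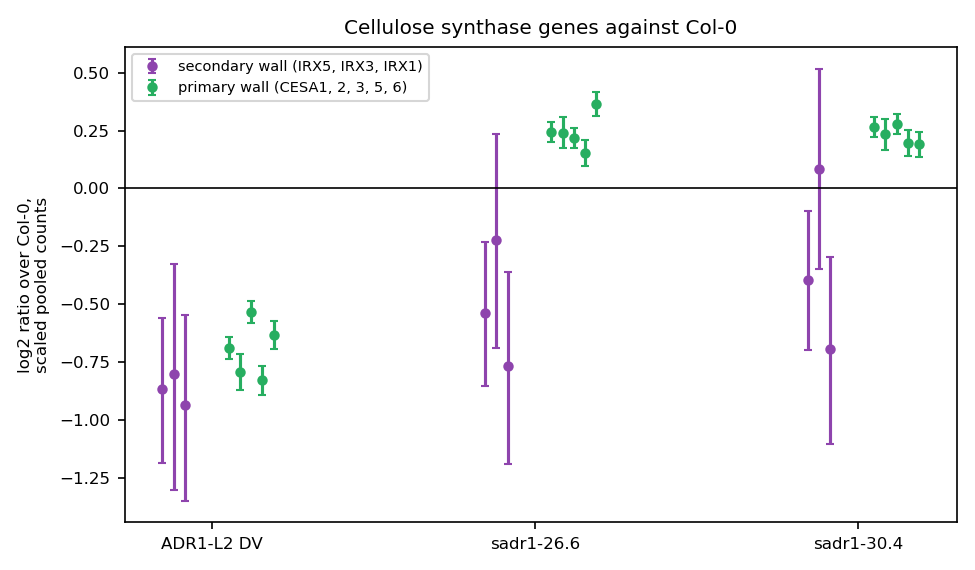
Log2 ratio to Col-0 (vertical axis) of 3 secondary wall and 5 primary wall cellulose synthase genes in *ADR1-L2 DV*, *sadr1-26.6* and *sadr1-30.4*, with 95% counting intervals; within each colour the genes run in the order of the legend. Both groups were below 0 in *ADR1-L2 DV*; in the suppressors the primary wall genes lay between 0.15 and 0.36 and the secondary wall genes between -0.77 and 0.08, *IRX3* being the highest of these in both lines.

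In the *FLA* family, genes other than *FLA11* and *FLA12* were also examined. Of 11 such *FLA* genes over the minimum, 5 were lower in *ADR1-L2 DV* and 0 higher, with a median of -0.54, and the lowest were *FLA16* (-1.68), *FLA15* (-1.55) and *FLA13* (-1.48). In *sadr1-26.6*, 10 of these 11 were above Col-0 and their range was -0.25 to 0.55. In *sadr1-30.4* all 11 were above it, from 0.04 to 0.62. The median of all genes was -0.0063 in *sadr1-26.6* and 0.0056 in *sadr1-30.4*. *FLA11*, at -0.51 and -0.79, was the lowest of the 12 in both suppressors, while *FLA12*, below the minimum, was at -0.24 [-0.93, 0.42] and 0.11 [-0.51, 0.74].

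Other wall genes were less uniform. Of 24 genes for xylan and other secondary wall polysaccharides or for cellulose assembly, 12 were over the minimum, of which 2 were lower, 1 higher and the median was -0.22. *CTL2*, a chitinase-like protein of cellulose deposition, was at -1.21 [-1.72, -0.74] and *ESK1*, a xylan acetyltransferase, at -1.07 [-1.73, -0.49]. *FRA8*, a glucuronoxylan glycosyltransferase, was the higher one at 2.25 [1.85, 2.71], with 324, 58, 28 and 55 pooled counts in *ADR1-L2 DV*, *sadr1-26.6*, *sadr1-30.4* and Col-0. Of 21 lignin genes, 18 were over the minimum, 9 were lower and 1 was higher, with a median of -0.58. The lowest were *PAL4* (-1.48), *4CL2* (-1.31) and *PAL1* (-0.92), enzymes of the phenylpropanoid entry steps, and the higher one was the alcohol dehydrogenase *CAD5* (0.72). The laccases *LAC4*, *LAC11* and *LAC17*, which polymerise lignin in vessels and fibres and are named here after their values were seen, lay at -0.90, -0.81 and -0.77.

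Among 6 genes of xylem cell death, 5 were over the minimum, of which 1 was lower and 2 were higher. *XCP1*, a cysteine protease of xylem vessels, resembled *IRX1*, with log2 ratios to Col-0 of -1.02 [-1.42, -0.65] in *ADR1-L2 DV*, and of -0.97 and -0.70 in *sadr1-26.6* and *sadr1-30.4*. *XCP2* was within 1.5-fold in all of these lines, at -0.52, -0.26 and -0.36. The higher genes were the nuclease *BFN1*, which also acts in leaf senescence, at 2.88 [2.26, 3.71] and the metacaspase *MC9* at 0.73 [0.21, 1.29]. Of 29 regulators of xylem and wall formation, 4 were over the minimum, of which 0 were lower and 1 was higher, *VNI2* (0.64), a NAC repressor of vessel formation that also acts in ageing leaves. Of 11 genes of the vascular cambium and patterning, 10 were over the minimum and 4 were lower, with a median of -0.31. The lowest were the homeobox gene *ATHB8* (-1.06), the bHLH gene *TMO5* (-0.85) and *PXY* (-0.84), the receptor for the *CLE41* and *CLE44* peptide. None of the 10 was called in either suppressor against Col-0.

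**Figure D5:**
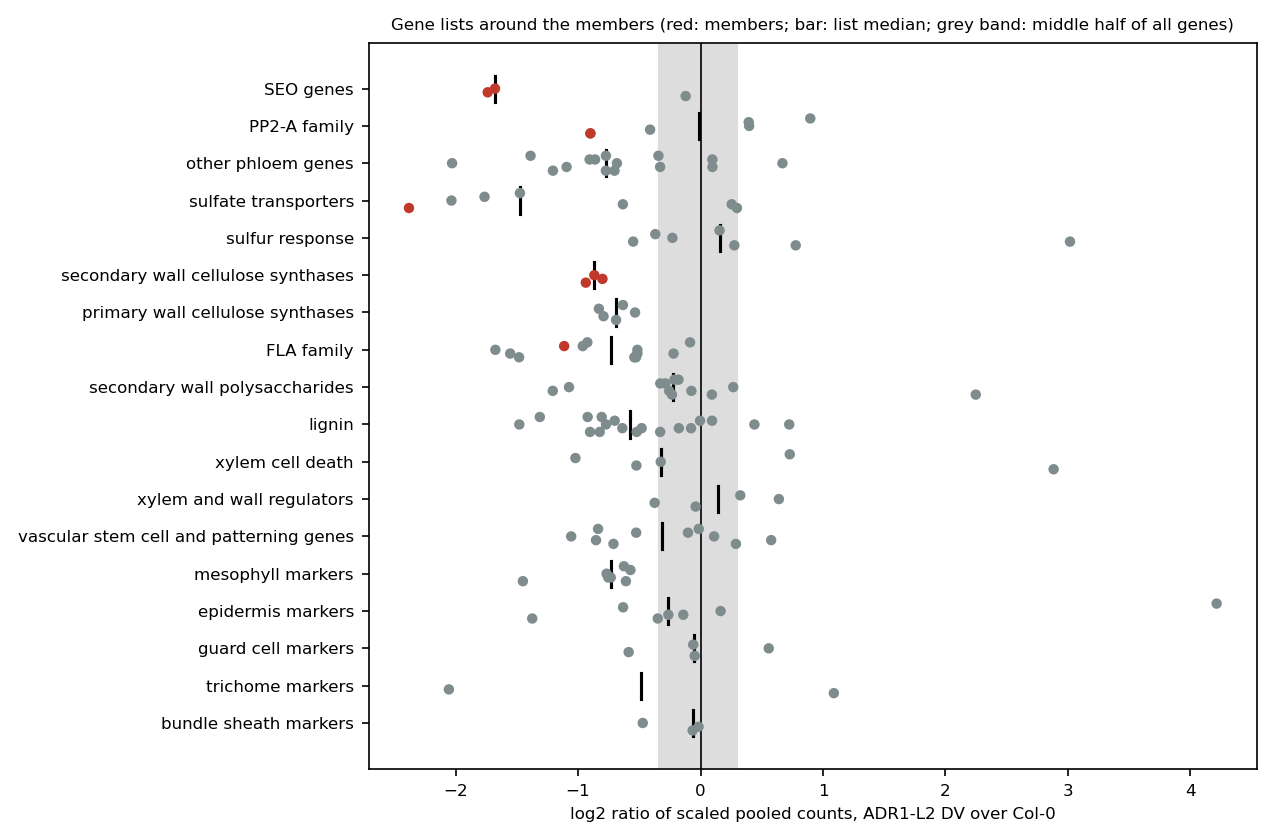
Log2 ratio of *ADR1-L2 DV* to Col-0 (horizontal axis) for every gene over the minimum in 18 lists; red points are members, grey points other genes, black bars list medians, and the grey band holds the central 50% of all 15355 genes. List medians were -0.77 for other phloem genes, -0.69 for primary wall cellulose synthases and -0.73 for mesophyll markers, and -0.01 for the *PP2-A* family.

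Markers of other leaf cell types also differed in *ADR1-L2 DV*. All 7 mesophyll markers, genes of photosynthesis such as *RBCS1A* and *CA1*, lay between -1.45 and -0.57, and 6 of 7 were called lower. Some of these genes have near-identical copies in the genome, between which reads may have been split. Their summed scaled count was 715965 in *ADR1-L2 DV*, 1217732 in *sadr1-26.6*, 1298717 in *sadr1-30.4* and 1184974 in Col-0. The median log2 ratio of *ADR1-L2 DV* to Col-0 was -1.68 for the phloem members and -0.94 for the xylem wall members. It was -0.77 for the other phloem genes over the minimum and -0.73 for the mesophyll markers. Among the phloem members, *PP2-A1* (-0.90) and *APL* (-0.64) were nearest to the mesophyll median and *SULTR2;1* (-2.38) farthest. The part of the mesophyll markers in the results for the 10 genes was not tested.

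Of 7 epidermis markers, 2 were lower and 1 higher in *ADR1-L2 DV*, with a summed level at 77.9% of that in Col-0. The higher one was at a log2 ratio of 4.21 and the lowest at -1.37. Of 4 guard cell markers over the minimum, 1 was lower and 0 were higher, with the sum of all 7 at 98.5%. Of 3 bundle sheath markers, which mark the layer around the vein, 0 were lower or higher and the sum stood at 93.8%. Of 5 trichome markers, 2 were over the minimum, 1 lower and 1 higher, with the sum at 52.3% and *GL1* at 0 pooled counts in every genotype. In the suppressors against Col-0, 0 of 7 mesophyll markers were called, and their sums stood at 103% in *sadr1-26.6* and 110% in *sadr1-30.4*. Of the epidermis markers, 1 was lower and 1 higher in each suppressor, with sums at 141% and 130% of Col-0. The guard cell sums stood at 108% and 90.8%, the bundle sheath sums at 115% and 113%, and the trichome sums at 92.0% and 95.7%. The part of these markers in the suppressor values was not tested either. Of the 10 genes followed here, 10 had log2 ratios to Col-0 below 0 in *sadr1-26.6* and 8 in *sadr1-30.4*.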

How the data were processed

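Leaf mRNA of 12 samples, 3 for each of 4 genotypes grouped by their titles, was sequenced by the authors, and the submitters' processing notes name the build TAIR10. No source used here gives the aligner, the counting tool or the strand setting. The authors deposited 1 column of counts per genotype, headed RPKM. The values were read as pooled counts because they are whole numbers, sum to 20013826 to 21277026 per genotype and rise with exon length (Spearman's rho 0.28 to 0.30 across genes); RPKM made from such counts would sum to 601425 to 623280. If the authors averaged the samples rather than summed them, the counting intervals are wider than needed. A further 6 deposited columns, with the authors' log2 fold changes and FDR values against Col-0, were not used.

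Counts were scaled by the median of ratios over 14455 genes with at least 50 counts in every genotype, giving size factors of 1.17 in *ADR1-L2 DV*, 0.930 in *sadr1-26.6*, 0.962 in *sadr1-30.4* and 0.956 in Col-0. Log2 ratios used a pseudocount of 1. Intervals are 95% Clopper-Pearson intervals for ratios and Poisson intervals for counts; those on ratios of ratios use a normal approximation. The steps were tested on simulated counts with Poisson noise only and few changed genes. That does not test the scaling where many genes differ, nor any spread between samples. The planned design had no test for pooled values. The members, the 18 gene lists and the 1.5-fold threshold were chosen with earlier results of these data known. Outside the cell type marker lists, up to 3 genes per list with the largest called difference in *ADR1-L2 DV* were named. Relatives of the members were named too, and some of the fixed cell type markers. Genes called alone in a direction, those given to show both directions of a list and those said to be named after their values were seen fall outside that rule. Positions, exon lengths and upstream sequences came from RefSeq's TAIR10.1, which held 27996 of the 28496 AGI codes. Genes that this annotation gives no symbol are called by their code. Alternatives were scaling by total counts or the upper quartile, pseudocounts of 0.5 and 5, and 2-fold. Others were minimums of 10 and 200, no minimum, and calls only where the whole interval passed the fold. Python 3.11.15, numpy 2.4.6, pandas 2.3.3, scipy 1.17.1, biopython 1.88 and matplotlib 3.10.9 were used.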

Additional observations from a re-analysis of the deposited data

How the results depend on the processing

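Over 200 log2 ratios of single genes under 4 other settings, 186 lay within the counting interval of the value reported and 14 did not, all 14 under scaling by total counts. That scaling raised the median of all genes by 0.22 in *ADR1-L2 DV* over Col-0 and lowered it by 0.25 (-0.25) and 0.24 (-0.24) in *sadr1-26.6* and *sadr1-30.4* over *ADR1-L2 DV*. The 1 change of sign was *IRX1* in *sadr1-26.6* over *ADR1-L2 DV*, at -0.07. Called members in *ADR1-L2 DV* over Col-0 were 4 at 2-fold, 5 where the whole interval passed and 5 with the minimum of 200, against 9, and 8 under total counts, where *APL* at -0.43 was not called. In *sadr1-26.6* over Col-0, 1 passed 2-fold. In *sadr1-30.4* over Col-0, 0 passed 2-fold, 0 had the whole interval past the fold and 1 passed with the minimum of 200. In *sadr1-26.6* over *ADR1-L2 DV*, 1 was called under total counts, 1 at 2-fold and 1 by the whole interval. In *sadr1-30.4* over *ADR1-L2 DV*, 3 passed 2-fold. With a minimum of 10 or none, *FLA12* was called too. This gave 10 in *ADR1-L2 DV* over Col-0 and 6 in each suppressor over *ADR1-L2 DV*. Stricter settings call fewer by construction, and the cause of the drop under total counts is the shift given above. No paired analysis was possible because the values are pooled over replicates, and for the same reason no replicate could be left out.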

Other observations

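The genes *XND1* and *WOX4* of the vascular lists were singled out after their values were seen. *XND1*, a NAC repressor of xylem differentiation, had 129 pooled counts in *ADR1-L2 DV*, 39 in *sadr1-26.6*, 26 in *sadr1-30.4* and 84 in Col-0. Its log2 ratios to Col-0 were 0.32, -1.05 and -1.67, so it was lower in both suppressors and not in *ADR1-L2 DV*. *WOX4*, a homeobox gene of the vascular cambium that acts below *PXY*, had 5, 15, 40 and 36 pooled counts in the same order and stayed below the minimum.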
